A study of Mus musculus with 4 samples.

Results

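The genes described here are 46 components of bone morphogenetic protein (BMP) and transforming growth factor beta (TGF-beta) signalling, chosen by name and role: ligands, receptors, antagonists, Smads, latent-form binding proteins and responsive genes. Each was read from the probe set that carries its symbol alone, the brightest where a gene had several, so that all 46 were found among 22180 genes named on the array. To enter the test, a gene had to exceed a floor of 4.71, set by olfactory and vomeronasal receptor genes, on 2 or more arrays. Of the 46, 45 passed, among 17841 genes in all. The receptor gene Bmpr1b stayed below the floor.

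The cells were primary mouse osteoblasts. Per the labels they were taken as progenitors from the calvaria of newborn animals and left to differentiate for 21 days in medium with ascorbate and glycerol phosphate. The series' design text instead speaks of RNA from purified progenitors, so the stage that was hybridised is uncertain. One group is labelled Runx3f/f/Col1a1-cre, a floxed Runx3 gene removed by a Cre that acts in cells making type I collagen. The other is wild type, labelled WT, and its Cre or floxed status is not given. Each group has 2 arrays of the Affymetrix Mouse Gene 2.0 ST type, numbered as biological replicates 1 and 2. The labels do not say whether animals were pooled or what a shared replicate number stands for, so p-values measure only the spread between these arrays. All values are on the deposited scale, taken as log2, and a difference of 1 is then 2-fold. Differences run from wild type to the Runx3f/f/Col1a1-cre label, and positive means higher under that label.

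BMP and TGF-beta ligands are secreted dimers that bind paired type I and type II receptor kinases. BMP receptors phosphorylate Smad1, Smad5 and Smad9, and TGF-beta and activin receptors phosphorylate Smad2 and Smad3; both sets enter the nucleus with Smad4. Antagonists hold ligands away from receptors, and Smad6 and Smad7 inhibit the pathway from within. In bone, BMPs promote osteoblast differentiation, while TGF-beta is stored in the matrix in a latent form.

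Several facts of the whole series bear on every value below. Runx3 read 7.94 and 8.06 on the arrays labelled Runx3f/f/Col1a1-cre against 7.45 and 7.87 in wild type, so the deletion was not visible in its signal; the deleted exons are not given, and the probe set may lie outside them. The group is therefore called mutant-labelled. Osteoblast markers were present, with Col1a1 between 13.45 and 13.57 and all 12 markers that had a row above the floor on every array. The tissue tag reads myoblast. The 10 myoblast markers ran from 4.55 to 8.24, and 8 of them were also above the floor on every array. The muscle regulator gene Myod1 was among these 8 and held equal values in the 2 groups within each replicate. Markers of both cell types passed the floor, so passing it does not settle the tag, and neither does equality between the groups. Of 20 macrophage markers, 17 were at least 1.5-fold lower in both replicates, and their summed linear signal was 3097 to 3529.9 on mutant-labelled arrays against 11571 to 13396 on wild-type arrays. Of 12 osteoblast markers 4 were that much lower, as were 3 of 11 chondrocyte and 4 of 9 adipocyte markers, while 3 of 10 endothelial markers were that much higher. Over all genes tested, 1.15% were that much lower in both replicates and 1.47% that much higher. Among these markers, the adipocyte marker Cd36 read below the floor on both mutant-labelled arrays. The endothelial marker Emcn did so on both wild-type arrays, so each was tested only through the group where it was high. The Y-linked genes Eif2s3y, Kdm5d and Uty were 4.51-fold to 4.85-fold higher and Xist 2.55-fold lower. Such genes differ between the sexes, and a difference in sex make-up between the groups cannot be told apart from the group label. The part of these markers in the results on the signalling genes was not tested, and in such cultures fewer cells of a type and less RNA per cell cannot be told apart. Exactly equal values were also found between the groups: in replicate 1 for 37.8% of all probe sets and in replicate 2 for 45.1%. Arrays with different replicate numbers shared 0.

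The clearest differences were in ligands and in responsive genes. Bmp7 and Bmp6 were more than 2-fold higher in both replicates on the mutant-labelled arrays, and Id4 was 1.66-fold higher. Tgfbi was 1.77-fold lower, and the ligand genes Tgfb2 and Gdf10 were 1.38-fold and 1.33-fold lower. By their mean over the replicates, the 8 tested receptors and the receptor-activated Smads were within 0.25 log2 units of no difference. Counting these, 33 of the 45 members were. None of the 45 passed the adjusted threshold of 0.05 in limma, where Bmp7 had the smallest adjusted p at 0.323, and across all genes tested 0 passed (0.00%).

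At an unadjusted limma p under 0.05, 5 of the 45 members were called (11.1%), against 707 of all genes tested (3.96%). The calls were Bmp6 and Bmp7 among higher genes, where the background was 2.06%, and Gdf10, Tgfb2 and Tgfbi among lower genes, where it was 1.90%. Leaving out either wild-type array gave 3 calls, as did leaving out mutant-labelled replicate 1, and leaving out mutant-labelled replicate 2 gave 2. At least 1.5-fold in the same direction within both replicates, 4 members stood apart (8.89%), against 469 of all genes (2.63%). Bmp6, Bmp7 and Id4 were higher, against a background of 1.47%, and Tgfbi was lower, against 1.15%. With 2 arrays a side, an exact permutation test of 1 gene cannot go below p = 0.333, so the calls rest on the variance that limma shares across genes. When the arrays were quantile normalized again and the replicate number was fitted as a block, 3 members passed the adjusted threshold (6.67%), against 399 of 17328 genes (2.30%). These were Bmp7, Id4 and Tgfbi; whether the replicate number marks a pair is not given in the labels.

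**Figure D1:**
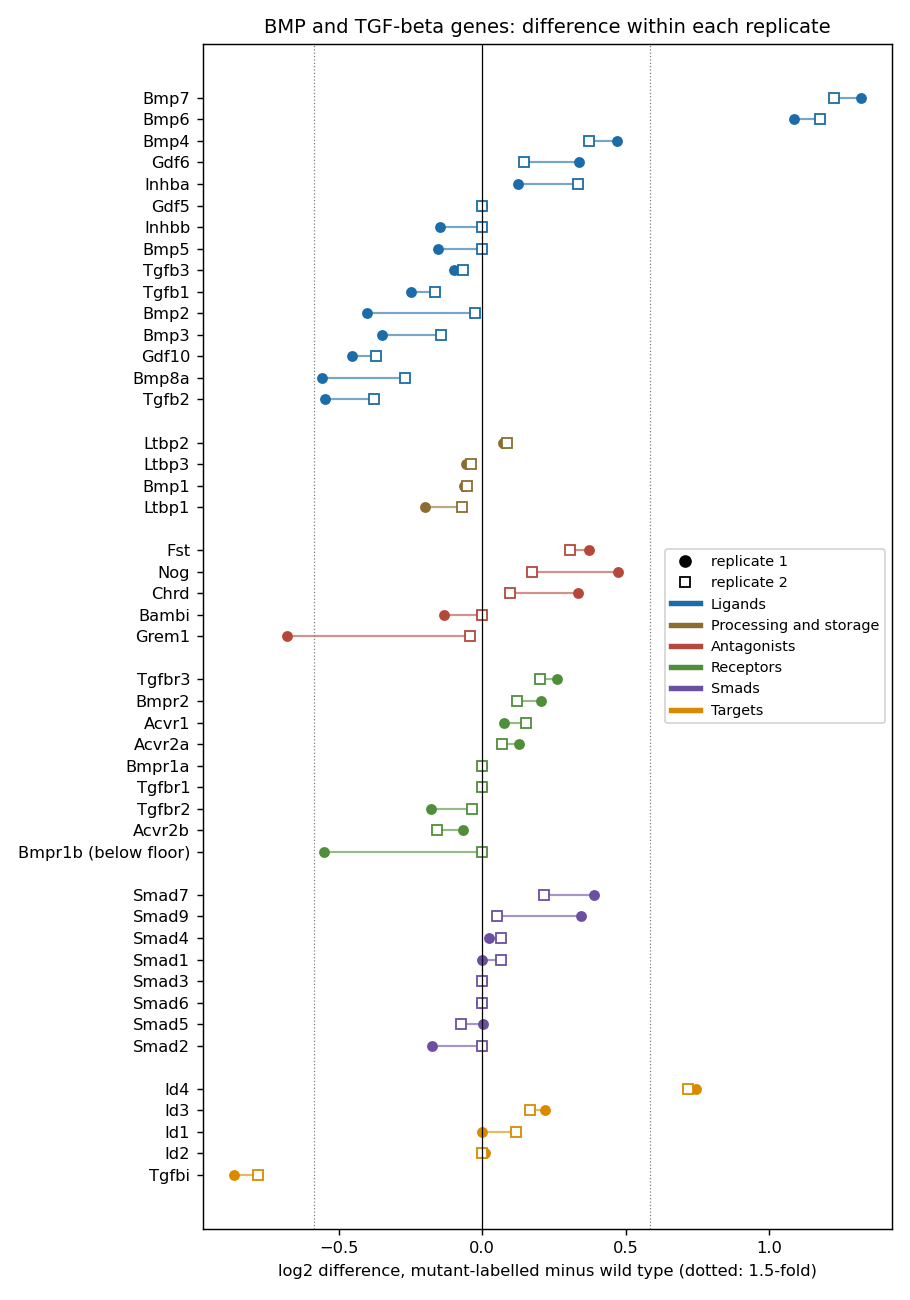
Log2 difference (horizontal axis, mutant-labelled minus wild type) of each of the 46 genes, ordered by role, with a filled circle for replicate 1 and an open square for replicate 2. Bmp7, Bmp6 and Id4 lie beyond the upper 1.5-fold line in both replicates and Tgfbi beyond the lower one, while Grem1 passes the line in replicate 1 alone.

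Over a wider range of sizes the members also separated by group. On 12 of the 45 both mutant-labelled arrays read above both wild-type arrays (26.7%), against 7.66% of all genes tested, and on 10 both read below (22.2%), against 9.25%. The median level of the 45 was 9.42 to 9.60 on the arrays, and that of all genes tested was 7.53 to 7.81. With the floor raised to the median row, 22 of the 45 still separated in either direction, and the share of all genes doing so was 20.6% in place of 16.9%. The part of signal level in the members' count was not tested. The median difference of the 45 was 0, as it was for all genes. In replicate 1 the difference was larger in size for 32 members and in replicate 2 for 9. That split was not counted over all genes. Over all probe sets, equal values were more frequent in replicate 2 (45.1%) than in replicate 1 (37.8%). Of the 45, 4 had equal mutant-labelled and wild-type values in both replicates, against 4583 of all genes tested (25.7%). Such genes cannot separate or be called, so they lower the shares given for all genes. Another 2 members were equal in replicate 1 alone and 6 in replicate 2 alone. An equal value does not show that a gene was unchanged.

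**Figure D2:**
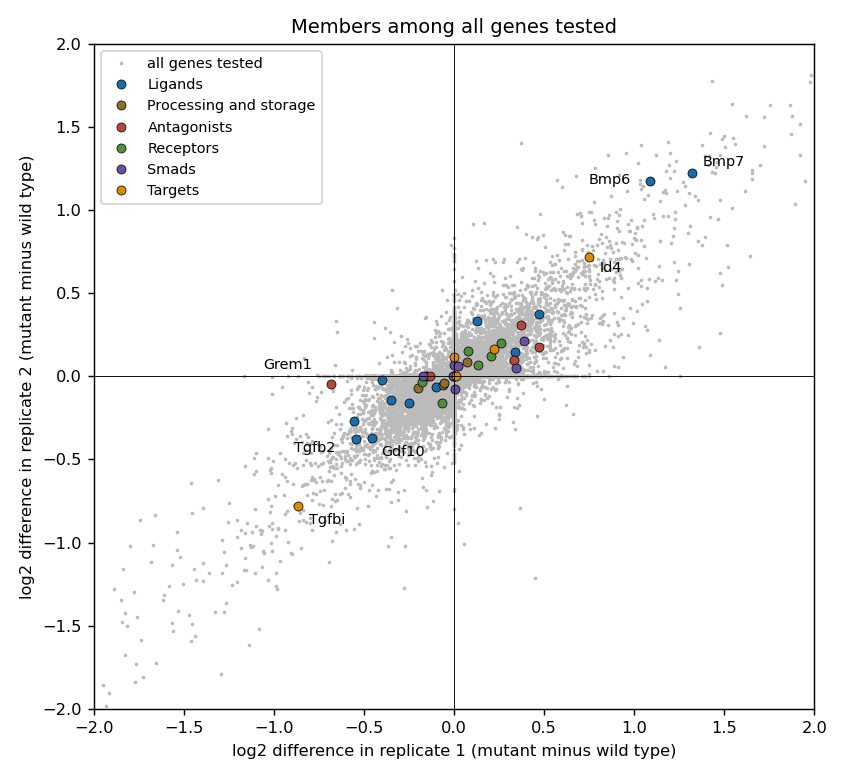
Log2 difference in replicate 1 (horizontal axis) against replicate 2 (vertical axis) for all genes tested (grey) and the 45 tested members (coloured by role). Bmp6 and Bmp7 lie at the upper right near 1.09 and 1.18, and 1.32 and 1.23, Tgfbi lies at the lower left, and 59 genes fall outside the axes.

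Among the 15 ligands, 5 were higher in both replicates and 7 lower in both. Of all 17841 genes tested, 3000 were higher in both, 3471 lower in both and 4583 equal in both. The ligands of one structural group, Bmp5, Bmp6, Bmp7 and Bmp8a, did not move alike. Bmp7, which signals through the BMP receptors and is used to induce bone, read 8.41 and 8.45 on the mutant-labelled arrays and 7.09 and 7.22 on the wild-type arrays (probe set 17395041). Both mutant-labelled values stood more than 1 log2 unit above both wild-type values, and the offset between replicates, 0.08, was small. The means were 8.43 ± 0.024 and 7.16 ± 0.091 (SD, n = 2), a 2.42-fold difference (log2 1.27, SE 0.13, limma adjusted p = 0.323). Bmp6, another osteogenic BMP and a regulator of hepcidin in the liver, read 7.52 and 8.01 against 6.43 and 6.83 (probe set 17286682). It was higher under the mutant label by 1.09 in replicate 1 and 1.18 in replicate 2, and replicate 2 read above replicate 1 by 0.44, averaged over the groups. The 2.19-fold difference had an SE of 0.26 and a limma adjusted p of 0.833. Endothelial cells also make Bmp6, and the summed linear signal of 10 endothelial markers was 887 to 942 on mutant-labelled arrays against 455 to 625 on wild-type arrays. Of these 10, Cdh5, Flt1 and Emcn were higher in both replicates, Kdr, Cldn5 and Tie1 held equal values, and the list's median difference was 0.02. Emcn read 3.76 and 4.42 on the wild-type arrays, below the floor, and passed it on the mutant-labelled arrays alone. The part of endothelial cells in the Bmp6 difference was not tested. Bmp5 differed by -0.16 in replicate 1 and held equal values in replicate 2. Bmp8a was lower in both replicates, by 0.56 and 0.27, but its replicates lay 0.78 apart and its 4 values overlapped between the groups.

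Sequence upstream of the start site is shown for Bmp6 and Tgfb2, since they are called ligands that differed in opposite directions. RefSeq promoter windows (GRCm38.p6) were matched for 31 of the 46 genes in 37 windows, with Bmp7 among those not matched. Each line below gives the 250 bases before the annotated start, 5′ to 3′, and capitals mark a match to 1 of the searched motifs on either strand. These were TGTGGT and TGCGGT, bound by Runx factors, CAGACA, bound by Smads, and the GC-rich GGCGCC of BMP-responsive elements. The Bmp6 window, chr13:38345466-38345715 on the plus strand, holds none of them. The Tgfb2 window, chr1:186705990-186706239 on the minus strand, holds 1 Smad motif. The window of Gdf10, the other called ligand that was lower, is not shown and holds none of the searched motifs.
Bmp6: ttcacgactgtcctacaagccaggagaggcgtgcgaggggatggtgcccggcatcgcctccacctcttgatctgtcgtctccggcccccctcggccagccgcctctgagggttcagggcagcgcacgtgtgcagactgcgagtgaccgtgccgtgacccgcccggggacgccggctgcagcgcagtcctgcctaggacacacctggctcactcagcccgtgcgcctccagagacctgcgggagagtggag
Tgfb2: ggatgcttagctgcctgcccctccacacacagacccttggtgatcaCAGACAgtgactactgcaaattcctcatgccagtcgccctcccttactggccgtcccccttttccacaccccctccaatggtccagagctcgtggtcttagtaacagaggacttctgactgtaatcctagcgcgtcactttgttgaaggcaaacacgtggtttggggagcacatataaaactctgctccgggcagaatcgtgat
Of the 37 member windows, 2 held a Runx motif (5.41%, against 18.6% of all 32851 windows), 5 a Smad motif (13.5%, against 17.1%) and 10 the GC-rich motif (27.0%, against 9.59%). The median share of G and C was 63.6% in the member windows and 52.4% in all. A match is only a run of letters in this window, and so is the lack of one.

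Among the other BMP-type ligands, Bmp4, which drives osteoblast differentiation, read 11.85 and 12.13 against 11.38 and 11.76. It was higher by 0.47 and 0.37 within the replicates, without overlap between the groups (1.34-fold, SE 0.21, limma adjusted p = 1). Bmp2, its close relative, had the opposite sign and rested mostly on replicate 1, at -0.40 and -0.02. Bmp3 and Gdf10 (BMP3B) form a divergent pair, and BMP3 restrains other BMPs in bone. Gdf10 read 12.02 and 12.08 on mutant-labelled arrays and 12.47 and 12.45 on wild-type arrays. All 4 values were tight, with the groups 0.41 apart and an offset of 0.02 between replicates (1.33-fold lower, SE 0.12, limma adjusted p = 1). Bmp3 was lower too, by 0.35 and 0.14. Gdf6 was higher by 0.34 and 0.14, with overlap between the groups, and Gdf5, a joint-forming factor, held equal values in both replicates. A dimmer second probe set of Gdf5 lay below the floor and was equal as well.

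All 3 TGF-beta ligand genes were lower in both replicates, with every mutant-labelled value below every wild-type value, a pattern seen in 9.25% of all genes tested. Tgfb2 read 10.35 and 10.30 against 10.90 and 10.68, lower by 0.55 and 0.38 (1.38-fold, SE 0.14, limma adjusted p = 1). Tgfb1, the main isoform stored in bone matrix, was lower by 0.25 and 0.16, and Tgfb3 by 0.10 and 0.07. Neither Tgfb1 nor Tgfb3 passed the unadjusted threshold in limma. Inhba, the activin A subunit gene, was higher by 0.13 and 0.33, and Inhbb was at -0.15 and equal in replicate 2.

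**Figure D3:**
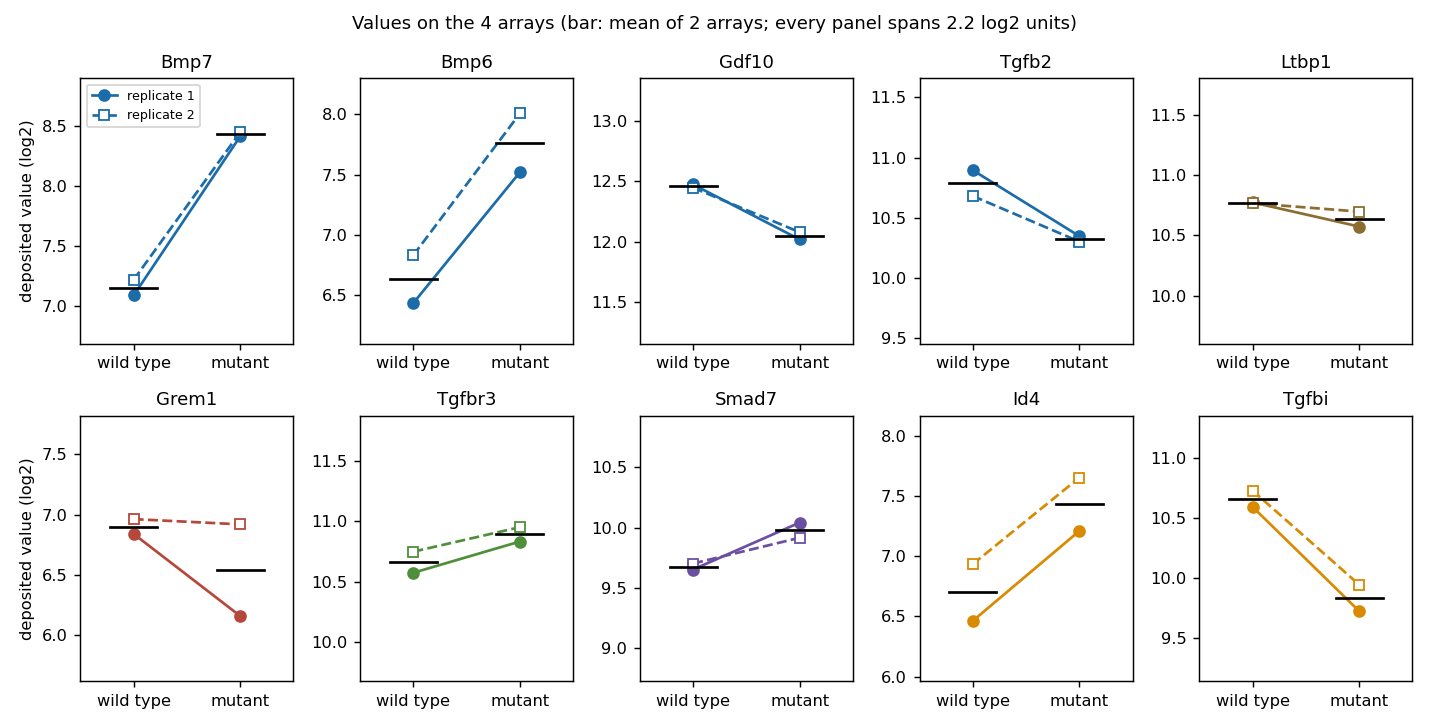
Deposited log2 value (vertical axis) of 10 genes on each array, with wild type on the left and mutant-labelled on the right of each panel, lines joining arrays of the same replicate number and black bars for the group means. Every panel spans the same range, so the slopes can be compared: those of Bmp7 and Bmp6 are the steepest, and the Grem1 slope is present in replicate 1 but nearly flat in replicate 2.

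The genes that process and store ligands differed little. Bmp1, the procollagen C-proteinase that also cleaves chordin, was at -0.06 and -0.05. Ltbp1, Ltbp2 and Ltbp3 encode proteins that tether latent TGF-beta to the matrix. Ltbp1 had the largest difference of the 4 and read 10.57 and 10.70 against 10.77 and 10.77, which is -0.20 and -0.07 within the replicates (SE 0.12, limma adjusted p = 1). Both mutant-labelled values lay below both wild-type values. Ltbp3 was at -0.06 and -0.04 and Ltbp2 at 0.07 and 0.08.

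Antagonists went both ways. Fst, which encodes the activin-binding follistatin, was higher on the mutant-labelled arrays by 0.37 in replicate 1 and 0.31 in replicate 2. It was the only antagonist of the 5 whose groups did not overlap, 1.26-fold higher (SE 0.13, limma adjusted p = 1). Nog and Chrd, the genes of noggin and chordin, were higher by 0.47 and 0.33 in replicate 1 and by 0.18 and 0.10 in replicate 2, and their replicates lay 0.55 and 0.57 apart. Grem1, the gremlin gene, had the largest mean difference in this class, yet it rested on 1 array. It read 6.16 and 6.92 on mutant-labelled arrays against 6.84 and 6.96 in wild type. Without mutant-labelled replicate 1 its difference was 0.02 in place of -0.36. Bambi, a receptor decoy in the membrane, was at -0.13 and equal in replicate 2.

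Receptors varied within a narrow range, from -0.11 to 0.23 over the 8 tested. Tgfbr3, the betaglycan co-receptor gene, read 10.83 and 10.95 against 10.57 and 10.75 and was the furthest apart, higher by 0.26 and 0.20 (SE 0.14, limma adjusted p = 1). Both of its mutant-labelled values lay above both wild-type values. Bmpr2, Acvr1 and Acvr2a were also higher in both replicates without overlap, by mean differences of 0.16, 0.11 and 0.10. A second row shared by Bmpr2 and Gm20272 did not repeat that sign, at -0.09 and 0.23. Tgfbr2 was lower by 0.18 and 0.03. Bmpr1a and Tgfbr1, the main type I receptor genes of the BMP and TGF-beta arms, held equal values in both replicates. Acvr2b differed by -0.07 and -0.16, with its replicates 0.86 apart. Bmpr1b, below the floor, ran from 3.74 to 4.29.

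Of the 8 Smads, none of the receptor-activated ones or Smad4 differed by more than 0.20 on average. Smad1 was at 0 and 0.07, Smad5 at 0.00 and -0.07, and Smad9 at 0.34 and 0.05, so the mean of Smad9 rested on replicate 1. Smad2 was at -0.17 and equal in replicate 2, Smad3 was equal in both replicates, and Smad4, the shared partner, was at 0.02 and 0.07. Among the inhibitory Smads, Smad7 read 10.04 and 9.92 against 9.65 and 9.70. It was higher by 0.39 and 0.21 with no overlap (1.23-fold, SE 0.13, limma adjusted p = 1). Smad6, the other inhibitory Smad, was at -0.00 and equal in replicate 2. Both genes are known to be induced by the pathway they inhibit.

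Responsive genes held the largest differences after Bmp6 and Bmp7. Tgfbi, which encodes a secreted matrix protein named for its induction by TGF-beta, read 9.73 and 9.95 on mutant-labelled arrays and 10.59 and 10.73 on wild-type arrays (probe set 17287827). Every mutant-labelled value was lower, by 0.86 in replicate 1 and 0.78 in replicate 2. The means were 9.84 ± 0.155 and 10.66 ± 0.096 (SD, n = 2), 1.77-fold apart (SE 0.15, limma adjusted p = 0.627). Macrophages also make Tgfbi, and the macrophage markers were lower on the same arrays. The part of those cells was not tested. Among the Id genes, inhibitors of basic helix-loop-helix factors and classical BMP targets, Id4 stood apart. It read 7.21 and 7.65 against 6.46 and 6.94, higher by 0.75 and 0.72 (1.66-fold, SE 0.27, limma adjusted p = 1). Replicate 2 read 0.46 above replicate 1 in Id4, which widens the spread within groups although the differences within the replicates, 0.75 and 0.72, were nearly alike. Id3 was higher by 0.22 and 0.17, with no overlap. Id1 was equal in replicate 1 and at 0.12 in replicate 2, and Id2 was at 0.01 and equal in replicate 2.

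The upstream windows of Id4 and Tgfbi are shown for the same reason, as the responsive genes that were 1.5-fold apart in opposite directions. The Id4 window is chr13:48260866-48261115 and the Tgfbi window chr13:56609336-56609585, both on the plus strand of GRCm38.p6, in RefSeq's table.
Id4: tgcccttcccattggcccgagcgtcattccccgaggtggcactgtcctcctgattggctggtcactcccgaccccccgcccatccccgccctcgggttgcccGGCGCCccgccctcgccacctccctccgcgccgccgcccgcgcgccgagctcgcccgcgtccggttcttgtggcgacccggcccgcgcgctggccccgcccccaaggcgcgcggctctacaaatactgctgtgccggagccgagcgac
Tgfbi: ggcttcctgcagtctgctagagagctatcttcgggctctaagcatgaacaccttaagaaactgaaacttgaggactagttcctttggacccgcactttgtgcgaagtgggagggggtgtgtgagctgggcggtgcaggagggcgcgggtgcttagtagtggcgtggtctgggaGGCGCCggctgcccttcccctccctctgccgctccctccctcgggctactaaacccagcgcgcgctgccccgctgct
Each holds 1 copy of GGCGCC, in capitals, with its first base at -148 from the start in Id4 and at -77 in Tgfbi. Neither holds a searched Runx or Smad motif.

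**Figure D4:**
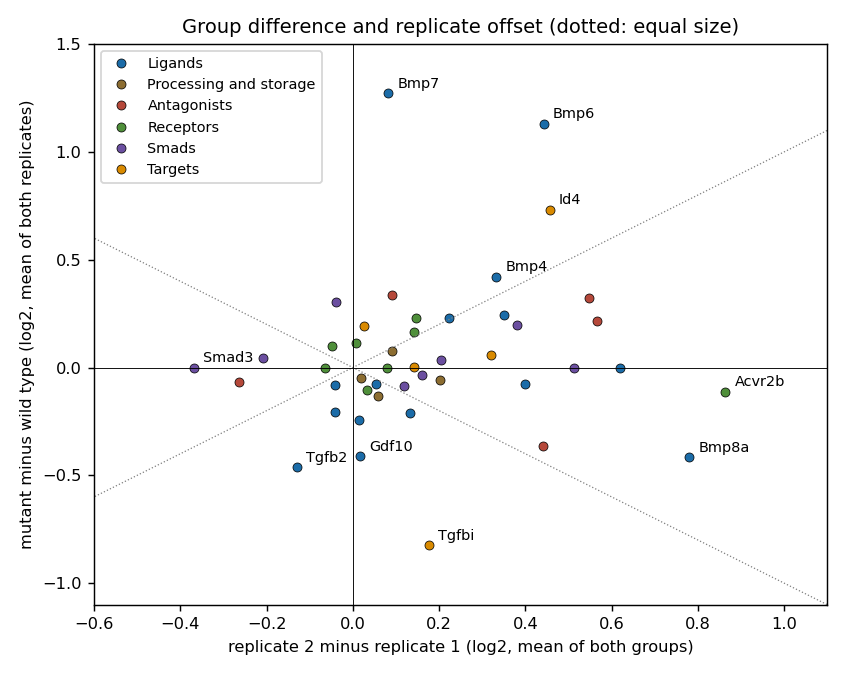
Offset between replicates (horizontal axis, replicate 2 minus replicate 1, mean of both groups, log2) against the group difference (vertical axis, mutant-labelled minus wild type, mean of both replicates, log2) for the 45 tested genes. In the upper and lower sectors between the dotted lines the group difference is the larger, as it is for Bmp7, Bmp6, Id4, Tgfbi, Tgfb2 and Gdf10, while Acvr2b and Bmp8a lie far to the right.

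The offset between replicates was of the same order as most group differences. Replicate 2 read higher than replicate 1 in 36 of the 45 genes, and the group difference exceeded the offset in 23. The shift was not particular to the members. The median of all genes tested was 7.530 and 7.526 on the replicate 1 arrays and 7.806 and 7.805 on the replicate 2 arrays. Neither the share of all genes that read higher in replicate 2 nor the share whose group difference exceeded the offset was counted. The limma SE ran from 0.12 for Ltbp3 to 0.47 for Acvr2b, since the fit without the replicate number leaves the offset in the spread.

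The wider pathway was read from 94 further genes, of which 86 had a row of their own and 81 were tested. At unadjusted limma p under 0.05, 3 were higher and 2 lower, against 2.06% and 1.90% of all genes tested, and their median difference was 0. Hey1, a transcriptional repressor that BMP signals can induce and that is also a Notch target, was the largest, at 8.96 and 9.18 against 6.53 and 7.34 (4.40-fold higher, SE 0.34, limma adjusted p = 0.529). Endothelial cells express Hey1 as well, and the part of the 3 higher endothelial markers was not tested. The other 4 were among 16 tested genes of ligand processing and storage. Pcsk5, a proprotein convertase, was 1.60-fold higher, by 0.67 and 0.68 within the replicates. Fbn2, the gene of the microfibril protein fibrillin-2, which binds BMP prodomains, was 1.45-fold higher. Pcsk6, another proprotein convertase, was 1.40-fold lower, and Lrrc32, which holds latent TGF-beta on the cell surface, 1.57-fold lower, at -0.84 and -0.46. For these 4 genes the limma adjusted p ran from 0.638 to 1. After the repeated quantile normalization with the replicate number as a block, Pcsk5, Fbn2 and Hey1 passed the adjusted threshold (limma adjusted p = 0.0387, 0.0481 and 0.0489). No other gene of the wider lists did, and 81 of those genes had been tested in the main fit. Of all genes, 2.30% passed under this setting. None of the 8 receptors, 14 antagonists, 14 intracellular regulators or 13 ligands of the wider lists was called. The share of all genes tested was 3.96%, so the lack of a call in lists this short does not set them apart. Of the antagonists, Nbl1 was nearest, higher by 0.44 and 0.42 (limma adjusted p = 1).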

How the data were processed

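Total RNA of 4 osteoblast cultures, 2 per group, was read on 4 Mouse Gene 2.0 ST arrays from Affymetrix. The deposited values, taken as log2, were made with Partek and RMA, per the submitters' processing notes, which give neither a version nor the order of steps. The log base, the centring and which arrays were normalized together are unstated in these sources, so folds assume base 2. The median over all rows was 5.504 and 5.454 on the replicate 1 arrays and 6.075 and 6.047 on the replicate 2 arrays. The deposited values of the 4 arrays therefore did not share 1 distribution. The number of arrays limits the precision. Rows were named from the platform annotation (23521 rows with 1 symbol, 1814 with several, 16010 with none listed), and the brightest single-symbol row stood for a gene. The floor of 4.71 is the 90th percentile over 1405 probe sets of olfactory and vomeronasal receptors, by mean level. Group was the only term in limma 3.58.1 (lmFit and eBayes, two-sided, R 4.3.3), with Benjamini-Hochberg adjustment over 17841 genes. The script was tested on simulated data. Members and gene lists were chosen with earlier results of these data known.

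Genes described with their values on all arrays were those at unadjusted p under 0.05, those at least 1.5-fold apart in both replicates and the largest mean difference in each role; Bmp4 was added after its values were seen. From the wider lists the rule allowed up to 4 genes per role by smallest p; those at unadjusted p under 0.05 and Nbl1 were named. Sex-linked genes and Runx3 were added to the marker lists later than the rest. Alternatives covered the floor, normalization, probe sets, fold threshold, variance trend, the replicate number as a block and each array left out.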

Additional observations from a re-analysis of the deposited data

How the results depend on the processing

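The count of members at unadjusted limma p under 0.05, 5 at the reported setting, was 6 with the higher floor of the median row (5.6% of all genes tested), 8 after quantile normalization again (7.53%), 8 with an intensity trend (5.79%), and 2 to 3 when single arrays were dropped (1.55% to 2.35%). With the replicate block it was 11 of 45 (24.4%, against 13.0% of all genes). With quantile normalization again and the replicate block it was 20 of 45 members, and the share of all genes was 20.7%. The 0 genes past the adjusted threshold became 49 with the intensity trend and 399 with quantile normalization again and the replicate block (2.30% of 17328), a combination known from earlier work on these data to give calls; 3 of the 45 members were then called: Bmp7 (adjusted p = 0.0387), Id4 (0.0458) and Tgfbi (0.0387). Under the replicate block and the intensity trend 0 members passed. With a lower fold threshold within both replicates 7 of 45 members stood apart, against 6.38% of all genes. At 2-fold 2 of 45 did, against 1.05% of all genes. With 1 replicate alone 4 to 5 of 45 did, against 3.23% and 4.62% of all genes. The median difference of the members was between -0.0608 and 0.0834 when single arrays were dropped, and that of all genes between -0.162 and 0.153. The count of separated members ran from 22 to 26 over the added alternatives. At 26 of 45, after quantile normalization again, the share of all genes that separated was 26.8%. Leaving out genes with equal values in both replicates raised the share of all genes to 22.8%, with 22 of 41 members. The 5 members at unadjusted limma p under 0.05 then stood against 5.33% of all genes. The 4 members at least 1.5-fold apart within both replicates then stood against 3.54%. Of 165 repeats over the 15 named genes, 1 reversed: Grem1, at 0.0180 without mutant-labelled replicate 1, in a range of -0.743 to 0.0180 over the dropped arrays. The floor settings, the mean of probe sets, the intensity trend and the replicate block left these differences unchanged, so they could not reverse a sign. Only dropped arrays and quantile normalization again could, and adding the block did not change the quantile difference. On the pairing, deviations from the group mean correlated between same-numbered arrays over the tested genes (Pearson r = 0.92, raised by the equal values; genes are not independent replicates), but the labels do not say that the number marks a pair. With 2 arrays a group, small differences in receptors and Smads could not be resolved.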
